A study of Mus musculus with 10 samples.

Results

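The 96 genes described here were lower in every tumour-associated macrophage library from anti-MerTK treatment than in every library from the control antibody. They were chosen on CPM, the usual scaling of a gene's count to its library total. A gene was taken when its mean in anti-gp120 was at least 5 CPM, its highest anti-MerTK value lay below its lowest anti-gp120 value, and its anti-MerTK mean was at most 0.75 of its anti-gp120 mean. Of 36528 gene models, 9711 reached the level, 321 of these did not overlap between the groups in this direction (3.31%), and 103 met all criteria (1.06%). Leaving out 7 of them by name, Abca9, Ago4, Cd247, Cdh1, Deptor, Ifngr1 and Pgap1, gave the 96 members (0.989%). The same criteria turned round, for genes higher after anti-MerTK, were met by 146 genes (1.5%). Because the contrast itself chose the members, their lower values are a description and carry no test.

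The libraries were made from polyadenylated RNA of purified macrophages taken from MC-38 tumours in C57Bl/6 mice 24 hours after treatment. MC-38 is a mouse colon carcinoma line that grows in this strain. One group of 5 libraries came from mice given an antibody against MerTK, the other 5 from mice given an antibody against gp120, a viral protein that mice lack. Both groups carried the tumour, and no untreated or tumour-free group was compared. The labels give no age, sex, antibody clone, number of animals or purification gate. They do not say whether each library came from a separate mouse, so a p-value measures only the spread between these libraries, which may be technical.

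MerTK, a tyrosine kinase of the macrophage surface, takes part in the uptake of dying cells. Engulfment loads the macrophage with protein, nucleic acid, lipid and amino acid cargo, which its lysosomes, transporters and metabolic enzymes then handle. The number of reads from a transcript also grows with its length, so libraries that differ in how completely long transcripts are recovered differ in the counts of long genes.

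Library totals lay between 33159858 and 46108687 counts. Anti-gp120 replicates 2 and 4 stood apart from the other 3 of their group in the balance of long and short transcripts. The rule and edgeR were also run without both, whereas the values on length were not recomputed without both. Macrophage markers were high in all libraries: 10 of 10 reached 5 CPM, and their summed level ran from 25100 to 27900 CPM in anti-gp120 and from 26200 to 27800 CPM in anti-MerTK. Summed monocyte markers ran from 470 to 1340 CPM (median 920) in anti-gp120 and from 702 to 1570 CPM (median 1100) in anti-MerTK. Only 3 of the 8 markers reached 5 CPM. The mean log2 difference, in which each marker counts equally, was 0.74 (exact two-sided permutation p = 0.0476, adjusted over 10 marker lists 0.317). The other lists had adjusted p-values of 0.317 or more in the same exact test. Epithelial markers summed to 0.0217 to 1.86 CPM, no list had a marker at 0 in all libraries, and no member is a marker. In bulk RNA, fewer cells of a type and less RNA per cell cannot be told apart. The part of the monocyte difference in the members' values was not tested. Mertk itself, whose protein the antibody binds, was at 91.3 ± 14.6 CPM in anti-gp120 and 78.7 ± 5.85 CPM in anti-MerTK (edgeR adjusted p = 0.263).

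The median member had an anti-MerTK mean of 0.707 of its anti-gp120 mean, and the members ran from 0.401 to 0.749. Together they took 0.464% to 0.586% of the counts of an anti-gp120 library and 0.317% to 0.391% of an anti-MerTK library. All 96 entered edgeR's test and 75 were called lower at an adjusted p under 0.05, where 1.38% of the 13588 genes tested were called lower, 1.85% higher and 3.22% in either direction. Leaving out 1 library gave 10 to 79 calls among the members, and these were 10 to 47 when the library left out was anti-gp120 replicate 2 or 4 or one of anti-MerTK replicates 1 to 4. Since the rule used that contrast, nothing is read from this count. Of the members, 91 are protein coding. The mean level in anti-gp120 ran from 5.105 CPM (Megf9) to 762 CPM (Kctd12).

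**Figure D1:**
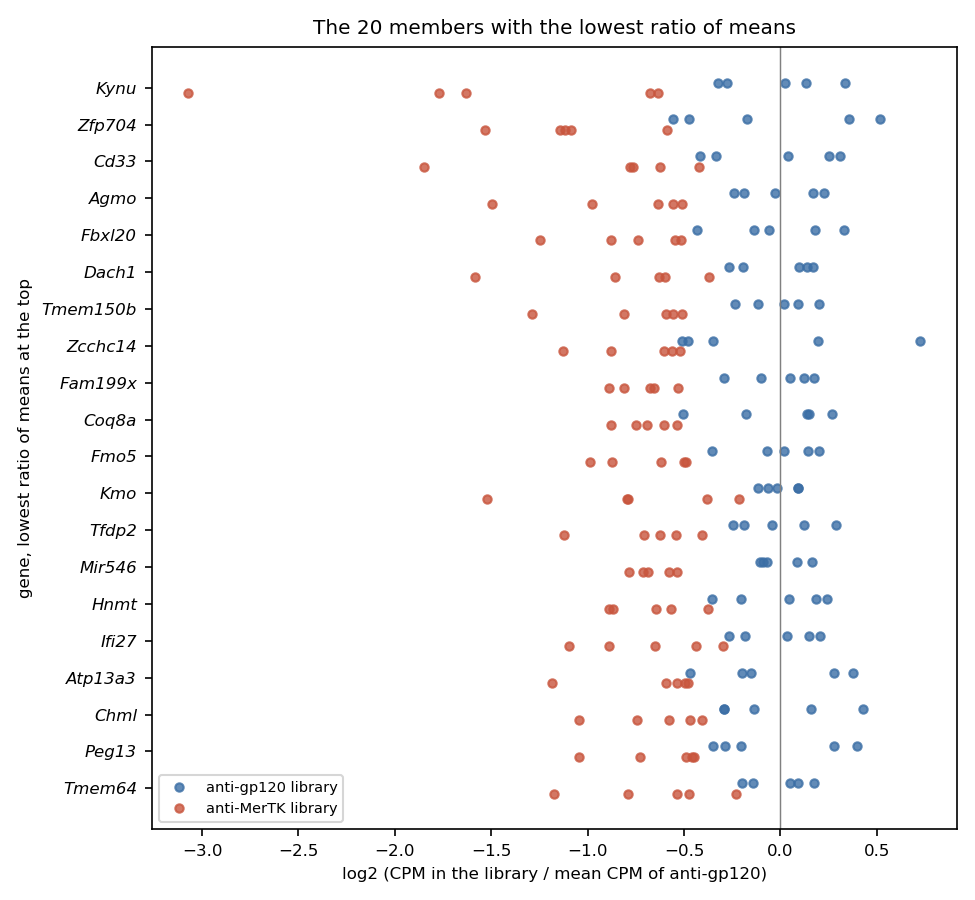
Level of the 20 members with the lowest ratio of means in each library (x axis: log2 of CPM over the anti-gp120 mean, each point a library, blue anti-gp120, red anti-MerTK). In every row the red points lie left of all blue points, as the rule requires, and Kynu in anti-MerTK replicate 2 lies farthest left.

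Metabolic enzymes formed 12 of the members and held the lowest ratio of all. Kynu (chr2:43555258-43683048 on GRCm38) encodes kynureninase, which cleaves kynurenine and its hydroxylated form in tryptophan breakdown. Its level in the 5 anti-gp120 libraries was 5.47, 6.97, 7.52, 8.63 and 5.66 CPM, and in the 5 anti-MerTK libraries 2.01, 0.814, 2.21, 4.403 and 4.28 CPM, a ratio of means of 0.401. The anti-MerTK libraries were uneven, with replicate 2 lowest and replicates 4 and 5 highest. Kmo, the kynurenine monooxygenase one step before it, stood at 5.06, 5.63, 5.23, 5.64 and 4.88 CPM in anti-gp120 and 3.05, 1.84, 4.06, 3.06 and 4.56 CPM in anti-MerTK, a ratio of 0.627. Anti-gp120 libraries were close to one another, and anti-MerTK replicate 2 was again lowest.

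Agmo cleaves the ether bond of alkylglycerol lipids with tetrahydrobiopterin as its cofactor. Agmo measured 8.36, 8.07, 11.1, 9.35 and 10.7 CPM in anti-gp120 and 6.699, 3.38, 6.13, 4.84 and 6.48 CPM in anti-MerTK. Replicate 2 was lowest among the anti-MerTK libraries. Fmo5, a flavin-containing monooxygenase, measured 9.08, 11.1, 12.8, 13.3 and 11.7 CPM against 8.27, 5.85, 6.34, 8.22 and 7.55 CPM, a ratio of 0.624. Anti-gp120 replicate 1 was the lowest of its group and lay just above anti-MerTK replicates 1 and 4. Hnmt, which inactivates histamine by methylation, measured 12.4, 14.7, 16.3, 16.9 and 11.1 CPM against 7.84, 7.72, 9.13, 9.63 and 11.01 CPM. Its nearest libraries, replicate 5 of each group, were a factor of 1.01 apart. Coq8a, an atypical kinase family protein needed for coenzyme Q synthesis, measured 4.43, 6.97, 5.56, 6.91 and 7.57 CPM against 3.89, 3.74, 3.41, 4.34 and 4.14 CPM. Anti-gp120 replicate 1 was its low library in the control group.

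The other 6 enzymes had ratios nearer the limit. They were Ddhd2, a lipase (0.6901), Lpgat1, an acyltransferase of phospholipid metabolism (0.705), Phka1, a regulatory subunit of phosphorylase kinase in glycogen breakdown (0.713), and Casd1, which acetylates sialic acid (0.724). Pdpr, a regulatory subunit of pyruvate dehydrogenase phosphatase, had 0.745, and the glycolytic aldolase Aldoc had 0.748.

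Promoters of 5 members are shown because they belong to the enzymes, the surface receptor and the ubiquitin ligases described here. All are RefSeq sequences of build GRCm38.p6, from 250 bases before to 50 after the annotated start, read in the direction of the gene. The Cd33 and Fbxl20 windows lie wholly inside the span of their gene, whose 5′ end is at 43537424 and 98150921. Capitals mark the letters searched, on either strand: the pattern of an interferon-stimulated response element (TTTC, 2 free bases, then TTTC) in Agmo (chr12:37241389-37241688, plus strand), GAGGAAGT in Kmo (chr1:175631943-175632242, plus strand), GGGCGG in Fbxl20 (chr11:98149567-98149866, minus strand) and Cbl (chr9:44233997-44234296, minus strand), and CCAAT in Cd33 (chr7:43533122-43533421, minus strand).
Agmo: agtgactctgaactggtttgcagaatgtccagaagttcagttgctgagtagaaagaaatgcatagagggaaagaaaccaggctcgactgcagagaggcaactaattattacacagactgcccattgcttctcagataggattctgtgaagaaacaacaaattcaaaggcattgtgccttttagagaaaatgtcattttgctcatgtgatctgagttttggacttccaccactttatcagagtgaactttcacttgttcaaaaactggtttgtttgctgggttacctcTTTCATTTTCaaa
Kmo: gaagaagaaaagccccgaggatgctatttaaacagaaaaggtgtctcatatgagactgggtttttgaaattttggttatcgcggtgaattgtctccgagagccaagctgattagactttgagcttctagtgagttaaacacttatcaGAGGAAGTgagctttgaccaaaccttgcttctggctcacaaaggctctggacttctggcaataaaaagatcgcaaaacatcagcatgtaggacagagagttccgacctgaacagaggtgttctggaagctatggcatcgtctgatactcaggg
Fbxl20: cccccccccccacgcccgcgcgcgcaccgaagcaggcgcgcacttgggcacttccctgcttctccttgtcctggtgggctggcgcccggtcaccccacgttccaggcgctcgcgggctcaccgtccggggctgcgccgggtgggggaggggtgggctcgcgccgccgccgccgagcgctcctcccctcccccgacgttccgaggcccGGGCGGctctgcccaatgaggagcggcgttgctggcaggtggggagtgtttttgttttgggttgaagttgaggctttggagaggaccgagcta
Cbl: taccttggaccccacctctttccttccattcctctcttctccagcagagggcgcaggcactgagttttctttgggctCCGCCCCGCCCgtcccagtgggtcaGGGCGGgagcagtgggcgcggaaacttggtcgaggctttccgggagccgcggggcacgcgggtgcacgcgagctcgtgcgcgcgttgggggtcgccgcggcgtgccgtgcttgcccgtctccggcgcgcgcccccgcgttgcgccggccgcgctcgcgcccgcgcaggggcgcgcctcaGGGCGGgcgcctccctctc
Cd33: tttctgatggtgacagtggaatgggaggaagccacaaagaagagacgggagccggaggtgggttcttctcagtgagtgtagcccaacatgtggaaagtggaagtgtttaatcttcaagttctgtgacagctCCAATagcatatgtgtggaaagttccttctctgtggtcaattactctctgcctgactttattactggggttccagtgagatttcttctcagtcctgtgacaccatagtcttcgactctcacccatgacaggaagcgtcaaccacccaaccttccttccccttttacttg

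The Cbl window held 4 matches to GGGCGG, 2 of them overlapping on the opposite strand. The other 4 windows held 1 match each to the pattern marked in them. Matches to other patterns are not marked: the Fbxl20 window also holds CCAAT, in small letters. RefSeq promoters were matched for 72 members, giving 89 windows. GGGCGG, the letters of a GC box, was in 65.2% of these, in 63.6% of windows of all genes at 5 CPM or more, in 39.4% of windows of all genes in the files and in 41.3% of those of the mirrored genes. The interferon-stimulated response element pattern was in 2.25% of member windows, 3.43% of windows of genes at the level, 3.44% of all windows and 28.99% of those of the mirrored genes. CCAAT was in 29.2% against 37.2% at the level and 37.8% of all windows, and CCGGAAGT in 1.12% against 9.06% and 4.33%. GAGGAAGT was in 3.37% against 3.49% and 3.18%. Of the other patterns searched, TATAAA was in 8.99% of member windows against 6.63% at the level, CACGTG in 6.74% against 10.7%, TGACGTCA in 1.12% against 3.16% and TGANTCA in 4.49% against 5.07%. The NF-kB and NRF1 patterns were in 0 of the 89 member windows, against 0.216% and 2.28%. A match is a description of the letters in a window and was not tested as a binding site.

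Surface receptors and their partners formed 8 members. Cd33 (chr7:43527399-43537424) is a lectin of the Siglec family that binds sialic acid. Cd33 measured 99.4, 158, 137, 165 and 106 CPM in anti-gp120 and 77.4, 36.8, 78.1, 86.2 and 99.1 CPM in anti-MerTK, a ratio of 0.568. Anti-MerTK replicate 5 and anti-gp120 replicate 1 were nearly equal, and anti-MerTK replicate 2 was far below the rest. Gpr171, a G protein-coupled receptor, measured 115, 117, 118, 115 and 117 CPM against 72.8, 62.8, 71.8, 99.1 and 111 CPM. Anti-gp120 libraries were almost identical, whereas anti-MerTK replicates 4 and 5 stood well above the other anti-MerTK libraries. Kctd12, an auxiliary subunit of GABA-B receptors, had the highest CPM of the members at 624, 872, 705, 892 and 717 CPM against 519.5, 475, 568, 562 and 588 CPM. Anti-gp120 replicates 2 and 4 were its highest libraries.

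The rest of this group comprised Ldlrad4, an inhibitor of TGF-beta signalling (0.6703), Megf9, a membrane protein with EGF-like domains (0.693), Lmbrd2 (0.708), Gpr155, a lysosomal cholesterol sensor (0.717), and Pag1, an adaptor that recruits the kinase Csk (0.741). RPKM is reads per length of gene model and per library size, size-factor-adjusted by the authors. Per length, the highest members in anti-gp120 were TrnL1 at 155 ± 22.9 RPKM and Tmem50b at 127 ± 15.8 RPKM (mean ± SD, n = 5). Kctd12 stood at 126 ± 19.7 RPKM, Ifi27 at 60.6 ± 7.92 RPKM and Gpr171 at 52.6 ± 2.83 RPKM. The TrnL1 value rests on a model of only 75 bases.

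Transporters and channels formed 8 members. Atp13a3, an ATPase linked to polyamine transport, measured 103, 148, 99.4, 138 and 82.6 CPM in anti-gp120 and 75.8, 50.2, 81.1, 78.6 and 81.97 CPM in anti-MerTK. Anti-MerTK replicate 2 lay apart below the other 4, and anti-gp120 replicate 5 was only 1.01 times anti-MerTK replicate 5. The other 7 were Abcb1b, a P-glycoprotein drug efflux pump (0.694), Trpm7, a divalent cation channel fused to a kinase (0.699), Slc17a5, the lysosomal sialic acid exporter (0.699), and Atp7a, the copper-exporting ATPase (0.704). Pkd2l2 is a polycystin-family channel (0.713), Slc4a7 a sodium bicarbonate cotransporter (0.722) and Xpr1 the phosphate exporter (0.723). Abcb1b has a close paralog, Abcb1a, so reads of the pair may be split, and Pkd2l2 overlaps Fam13b, another member, on the opposite strand.

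Ubiquitin ligase components and a deubiquitinase formed 9 members. Fbxl20, the substrate-binding F-box subunit of a cullin ligase, measured 24.7, 41.99, 32.0, 37.9 and 30.4 CPM in anti-gp120 and 19.98, 14.1, 18.2, 22.8 and 23.4 CPM in anti-MerTK. Its highest libraries were anti-gp120 replicates 2 and 4. Cbl, the ligase that marks activated receptor tyrosine kinases for degradation, measured 77.2, 109, 73.4, 113 and 80.7 CPM against 68.8, 60.04, 59.1, 62.9 and 60.7 CPM. Anti-gp120 replicates 2 and 4 were well above the other 3, while the anti-MerTK libraries were close together.

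The other members of this group were Spsb1, a SOCS-box adaptor (0.681), Rmnd5a, a subunit of the CTLH ligase (0.703), the cullin adaptors Klhl24 (0.708) and Klhl6 (0.716), the deubiquitinase Mindy2 (0.722), Mib1, which acts on Notch ligands (0.733), and Rnf170, a ligase of the endoplasmic reticulum (0.741). Of 359 ubiquitin ligases listed by symbol pattern, 210 reached 5 CPM. Of these, 6 were members (2.86%, against 0.989% of all genes at the level) and 6 others met the mirrored rule (1.5% of all genes at the level). edgeR tested 257 of them and called 10 lower and 10 higher (3.89% each, against 1.38% and 1.85% of all genes tested), with a median log2 fold change of -0.07 where the median of all genes tested was -0.01.

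Transcription and nuclear factors gave 6 members, including the second lowest ratio of all. Zfp704 (chr3:9427010-9610085), a zinc finger protein, measured 6.74, 12.7, 7.16, 14.2 and 8.82 CPM in anti-gp120 and 6.603, 3.44, 4.497, 4.58 and 4.68 CPM in anti-MerTK. It stood high in anti-gp120 replicates 2 and 4, and anti-gp120 replicate 1 was nearly level with anti-MerTK replicate 1. Dach1, a transcriptional corepressor, measured 7.001, 9.45, 8.97, 9.27 and 7.35 CPM against 4.64, 2.805, 6.503, 5.55 and 5.44 CPM. Its lowest library was anti-MerTK replicate 2. The other 4 were Crebl2, a leucine zipper factor related to CREB (0.677), Gabpb2, a subunit of the GABP factor (0.705), Ahctf1, a nuclear pore protein (0.7196), and Clock, the circadian activator (0.748).

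Cell cycle and DNA damage genes gave 4 members. Tfdp2, the partner through which E2F factors bind DNA, measured 8.91, 12.4, 9.87, 11.1 and 8.56 CPM in anti-gp120 and 7.67, 4.67, 6.23, 6.98 and 6.59 CPM in anti-MerTK. Replicate 2 was its highest anti-gp120 library and also its lowest anti-MerTK library, numbers that pair nothing. The damage kinases Chek2 and Atr had ratios of 0.731 and 0.746, and Rbl2, a retinoblastoma family pocket protein, had 0.745. Among 66 listed DNA repair and damage signalling genes at 5 CPM or more, Atr was the 1 member (1.52%, background 0.989%). Another 3 met the mirrored rule (background 1.5%). Of 84 tested, edgeR called 1 lower and 5 higher (1.19% and 5.95%, against 1.38% and 1.85% of all genes tested). The cell cycle list had no member among its 27 genes at 5 CPM or more, which is near the background of 0.989% for a list of this size. edgeR called 0 of its 28 genes, with 3 lower (10.7%) and 5 higher (17.9%) at an unadjusted p under 0.05, against 10.8% and 10.1% of all genes tested.

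Vesicle traffic, endoplasmic reticulum and lysosome genes gave 12 members. Tmem150b, a membrane protein linked to autophagy, measured 7.32, 7.95, 9.18, 8.74 and 9.899 CPM in anti-gp120 and 5.71, 3.53, 4.91, 5.86 and 6.06 CPM in anti-MerTK. The groups were separated by a factor of 1.21 between their nearest libraries. Chml, a Rab escort protein, measured 9.03, 14.9, 10.1, 12.3 and 9.03 CPM against 6.603, 5.37, 7.98, 7.42 and 8.34 CPM. Its exons overlap Opn3, and those of Tmem150b overlap Brsk1 on the opposite strand. Nbeal1, a BEACH domain protein, measured 11.1, 13.6, 10.1, 15.7 and 10.1 CPM against 8.25, 7.57, 7.54, 8.11 and 8.65 CPM. Vps13a, which moves lipid between membranes, measured 20.4, 26.1, 18.8, 24.2 and 18.8 CPM against 17.8, 16.9, 15.5, 16.5 and 13.7 CPM. Both have among the longest gene models of the members, at 17235 and 17749 bases.

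The other 8 were Snx29, a sorting nexin (0.665), the thioredoxin-domain proteins Txndc16 (0.700) and Tmx4 (0.716), Sft2d2 of the secretory pathway (0.712), the lysosomal membrane protein Tmem106b (0.722), Ccpg1, a receptor for autophagy of the endoplasmic reticulum (0.733), the scaffold Lin7c (0.7403), and Aph1b of gamma-secretase (0.749). None of the 42 lysosomal genes at 5 CPM or more met the rule, where members are 0.989% of all genes at that level. edgeR called 0 of the 43 tested, with 11 lower and 0 higher at an unadjusted p under 0.05 (25.6% and 0%), against 10.8% and 10.1% of all genes tested.

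Signalling genes lay near the ratio limit, and the 7 kinases, phosphatases and phosphoinositide proteins had a median gene model of 7497 bases. These 7 ran from 0.705 to 0.743: Inpp4b, a phosphoinositide phosphatase, Akap11, an anchor of protein kinase A, Ctdsp2, a small phosphatase, Plekha1, a phosphoinositide-binding adaptor, and the kinases Map3k2, Prkd3 and Hipk3. Cytoskeletal regulators and linkers gave 4 members from 0.695 to 0.738: the exchange factors Dock4 and Spata13, the GTPase-activating protein Arhgap5, and Hook3, a dynein adaptor.

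RNA-binding and non-coding genes gave 7 members. Ago3, an Argonaute that carries small RNAs, measured 14.3, 18.5, 16.2, 20.9 and 13.2 CPM in anti-gp120 and 11.5, 10.9, 11.9, 11.97 and 11.4 CPM in anti-MerTK. The anti-MerTK libraries were tightly grouped, and anti-gp120 replicates 2 and 4 were the highest. Its gene model of 17928 bases is the longest among the members. Peg13, an imprinted long non-coding RNA, measured 8.22, 12.5, 7.43, 11.5 and 7.75 CPM against 5.71, 4.58, 6.895, 6.74 and 6.93 CPM. It was again high in anti-gp120 replicates 2 and 4. Snhg12, host of small nucleolar RNAs, measured 5.64, 5.58, 7.16, 6.99 and 7.05 CPM against 3.87, 3.44, 5.23, 4.27 and 5.32 CPM.

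The 2 shortest members were a mitochondrial transfer RNA and a microRNA precursor. TrnL1, the mitochondrial leucine transfer RNA of 75 bases, measured 13.4, 14.9, 9.84, 10.6 and 9.71 CPM in anti-gp120 and 7.498, 7.75, 8.602, 7.01 and 9.55 CPM in anti-MerTK. Anti-gp120 replicate 5 and anti-MerTK replicate 5 were nearly level. Mir546, a model of 121 bases, measured 5.79, 6.54, 5.88, 6.91 and 5.73 CPM against 4.14, 3.77, 3.57, 4.25 and 3.83 CPM, with the widest gap of the genes given library by library: a factor of 1.35 between nearest libraries. Its model lies within the span of Ctdsp2, another member, so reads of the 2 may not be told apart and Mir546 is not independent of it. Counts on such short models are reads of the locus and not of a mature microRNA. The mitochondrial ribosomal RNA mt-Rnr2 (0.677) and Ro60, which binds small non-coding RNAs (0.71), complete the group. On the mitochondrial genome mt-Rnr2 ends at base 2675 and TrnL1 starts at base 2676. Reads of these neighbours may therefore not be told apart, and TrnL1 may not be independent of mt-Rnr2. Reads of the mitochondrial genes can be lost to near-identical nuclear copies, so their levels are uncertain.

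The remaining 19 members have other or less well described roles. Ifi27, an interferon-inducible protein of mitochondrial and nuclear membranes, measured 80.05, 86.7, 90.2, 68.7 and 65.03 CPM in anti-gp120 and 49.8, 36.5, 57.7, 42.2 and 63.5 CPM in anti-MerTK. Anti-MerTK replicate 5 came close to the lowest anti-gp120 library. Zcchc14, a zinc knuckle protein, measured 8.53, 18.0, 7.81, 12.4 and 7.64 CPM against 5.93, 4.98, 7.59, 7.16 and 7.38 CPM. Anti-gp120 replicate 2 stood far above the rest, and Map1lc3b overlaps its exons on the opposite strand. Tmem64 measured 18.5, 22.98, 21.7, 21.1 and 17.7 CPM against 11.8, 9.05, 14.1, 14.7 and 17.4 CPM. Fam199x measured 6.57, 6.01, 4.75, 6.33 and 5.42 CPM against 3.14, 3.32, 3.69, 3.64 and 4.03 CPM. Tmem64 nearly touched between the groups, and Fam199x had a gap of a factor of 1.18. Tmem50b measured 251, 312, 305, 326 and 272 CPM against 194, 174, 241, 226 and 225 CPM. The other 14 ran from 0.679 for Tmem184c to 0.749 for Mblac2: Abtb1, Ankrd44, Dpy19l4, Fam102b, Fam13b, Glcci1, Niban1, Pcmtd2, Smim13, Tmem131l, Tmem71 and Vopp1 lay between.

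Of 91 members with a GENCODE transcript, 32 have exons that overlap another gene, 27 of them a gene on the opposite strand. Whether counting used strand is not given in the sources used here, so reads of such pairs cannot be told apart. The members just inside the level limit were Megf9 (5.105 CPM), Kmo (5.29) and mt-Rnr2 (5.39), and just outside were Zscan30 (4.99), Ppp1r12b (4.84) and Ppp2r3a (4.58). Just inside the ratio limit were Aph1b (0.749), Mblac2 (0.749) and Aldoc (0.748), and just outside B230219D22Rik, Nr2c2 and Cebpg (all 0.751). Rnf170, Cd33 and Hook3 were just short of overlapping, with the lowest anti-gp120 library 1.003 to 1.004 times the highest anti-MerTK library. Alg10b (0.999) and Galnt3 (0.995) were among the genes that just overlapped.

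Members were long. Their median gene model, recovered as whole bases from counts and RPKM, was 5904.5 bases, against 3275 bases for all genes at the level and 2619 bases for the mirrored genes. In the longest 25% of genes lay 57 members (59.4%), against 10.96% of the mirrored genes. The median 3′ untranslated region was 3284 bases in members, 1172 bases at the level and 756 bases in the mirrored genes, and median coding length was 1800, 1347 and 1209 bases. Transcript GC content had medians of 44.2%, 49.4% and 49.2%. Members made up 0.309% of the shortest 10% of genes and 3.296% of the longest 10%, 32 of 971. Mirrored genes went the other way, from 2.16% to 0.515%. The median log2 ratio of all genes went from 0.06 in the shortest 10% to -0.19 in the longest 10%, and to -0.18 there without the members.

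**Figure D2:**
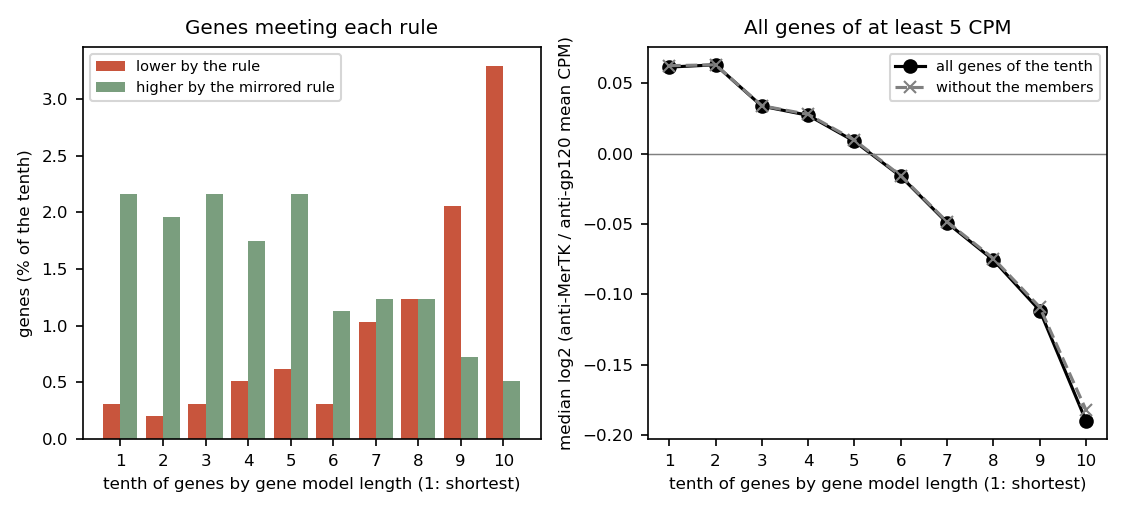
Left, share of genes in each of 10 equal bins of gene model length that met the rule (red) or the mirrored rule (green); right, median log2 ratio of mean CPM in each bin, with all genes (black) and without the members (grey). Members make up 3.296% of the longest bin, where the median log2 ratio is -0.19.

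Long genes also differed among libraries. The mean log2 CPM of the longest 25% minus the shortest 25% of transcripts was -0.25 ± 0.18 in anti-gp120 and -0.44 ± 0.08 in anti-MerTK (SD, n = 5), a difference of -0.19 (exact two-sided permutation p = 0.0714, smallest possible 0.00794). Anti-gp120 replicates 2 and 4 stood apart at -0.04 and -0.09, where the other 3 ran from -0.48 to -0.32. The anti-MerTK libraries ran from -0.58 to -0.36. The group difference was not computed without both of these anti-gp120 libraries. Anti-gp120 replicates 2 and 4 also held the highest member levels, with medians of 0.17 and 0.14 on the log2 scale relative to the group mean. They were the highest anti-gp120 library for 50 and 30 members. Among the other 3 anti-gp120 libraries, replicate 3 had the lowest length value (-0.48) and the highest member level (-0.07). Within anti-MerTK the 2 measures did not follow each other either: replicate 5 had the lowest length value (-0.58) and the highest member level (-0.43). Replicate 2 had the lowest member level (-0.68), and was the lowest library for 63 members, at a length value of -0.43.

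**Figure D3:**
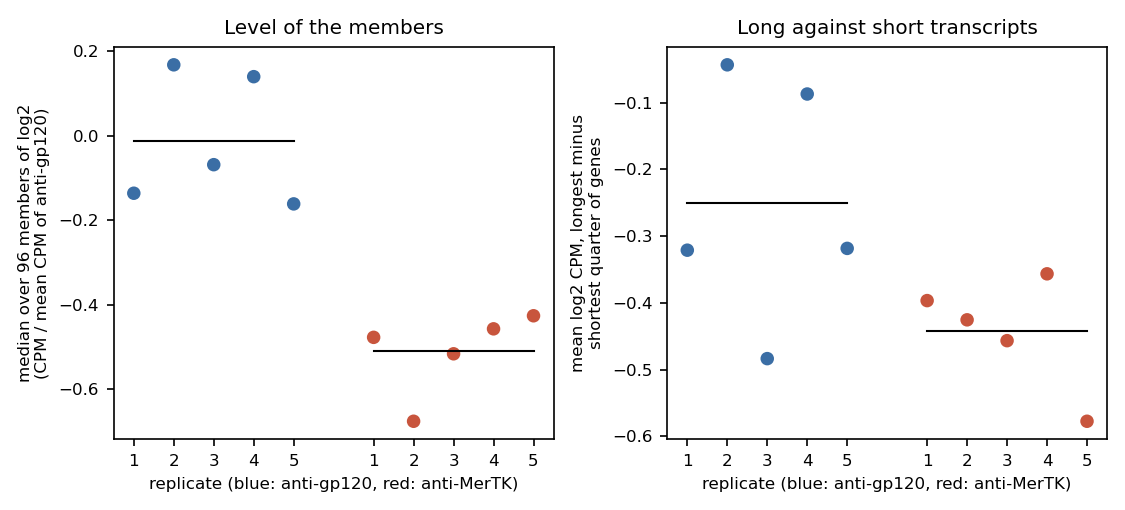
Left, median over the members of log2 CPM relative to the anti-gp120 mean in each library; right, mean log2 CPM of the longest 25% minus the shortest 25% of genes (points are libraries, lines are group means). Anti-gp120 replicates 2 and 4 are highest in both. The length values of the groups overlap, whereas the member levels cannot, because the rule took only genes without overlap.

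With a curve of log2 CPM on transcript length removed from each library, 57 genes met the rule and 39 of the 96 members were among them. Of these 39, 5 (Mir546, Peg13, mt-Rnr2, Snhg12 and TrnL1) have no transcript length, were left unadjusted and so met the rule by construction. Among the 91 adjusted members 34 still met it, and the median went from 0.708 to 0.751. All 91 stayed below a ratio of 1, but the rule had started each at 0.75 or less, so nothing is read from this. The 34 included 11 of the 18 adjusted members among the 20 lowest ratios. They also included 11 of the 57 in the longest 25% of genes by gene model and 23 of the other 34. The curve used the longest GENCODE transcript, which can differ from the gene model. Ldlrad4 has a gene model of 8931 bases and was adjusted as 3031 bases, and Kynu has 4846 and was adjusted as 2778. Which members still met the rule may depend on the length used, which was not tested. By role the 34 were 9 of 12 metabolic enzymes, 4 of 8 transporters, 4 of 12 traffic genes and 2 of 4 cell cycle genes. They were also 2 of 8 surface genes, 2 of 6 transcription factors and 9 of 19 others. The rest were 1 of 9 ubiquitin genes and 1 of 7 kinases and phosphatases, with none of 4 cytoskeletal genes and neither Ago3 nor Ro60. Roles differ in length, with median gene models of 4712 bases in enzymes and 6572 bases in ubiquitin genes. The split by role therefore cannot be told apart from length, and nothing is read from it. Kynu went from 0.401 to 0.3902, Agmo from 0.578 to 0.569 and Ifi27 from 0.639 to 0.596. Cbl went from 0.687 to 0.778, Ago3 from 0.692 to 0.789 and Vps13a from 0.741 to 0.8304. Whether length is a cause of the lower values was not tested.

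**Figure D4:**
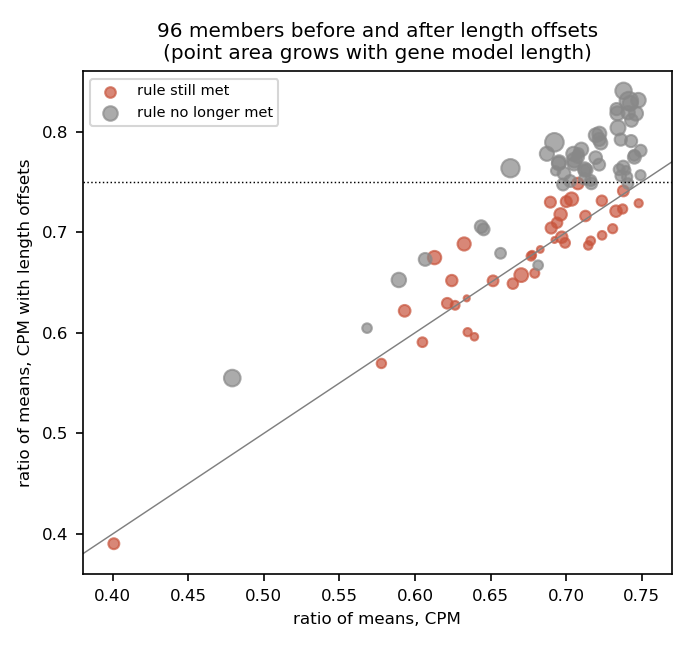
Ratio of means of each of the 96 members before (x axis) and after (y axis) removing the length curve from each library, with point area growing with gene model length (red, rule still met; grey, no longer met; dotted line, 0.75). Most long genes lie above the diagonal, and 39 members still met the rule, 5 of them unadjusted and on the diagonal.

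Because anti-gp120 replicates 2 and 4 stood apart, the rule was also run without them, a choice made after seeing the data. Then 53 genes met it, 37 of the members among them, and the members' median ratio was 0.767 (0.442 to 0.859). The same fit in edgeR called 11 genes, 1 of them lower, and 0 members. An unadjusted p under 0.05 was found for 93 members and 1569 of 13825 genes. Since the rule chose the members on this contrast, nothing is read from the 93.

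Each library was also left out of the choice in turn and then set against the other group. Of the genes chosen on the other 9 libraries, 56.8% to 100% lay beyond every library of the other group in the left-out library, where 14.3% to 37.3% of all genes at the level did. The libraries of the other group took part in the choice, which raises the share of the chosen genes only. The shares are therefore not like for like, and nothing is read from their difference. Anti-gp120 replicate 2 gave 75 of 75 genes and anti-MerTK replicate 2 gave 82 of 83, the highest shares of their groups. Anti-gp120 replicate 3 gave 116 of 200 and anti-MerTK replicate 5 gave 113 of 199, the lowest. Replicate 2 is the highest anti-gp120 library and the lowest anti-MerTK library for the members' median level.

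**Figure D5:**
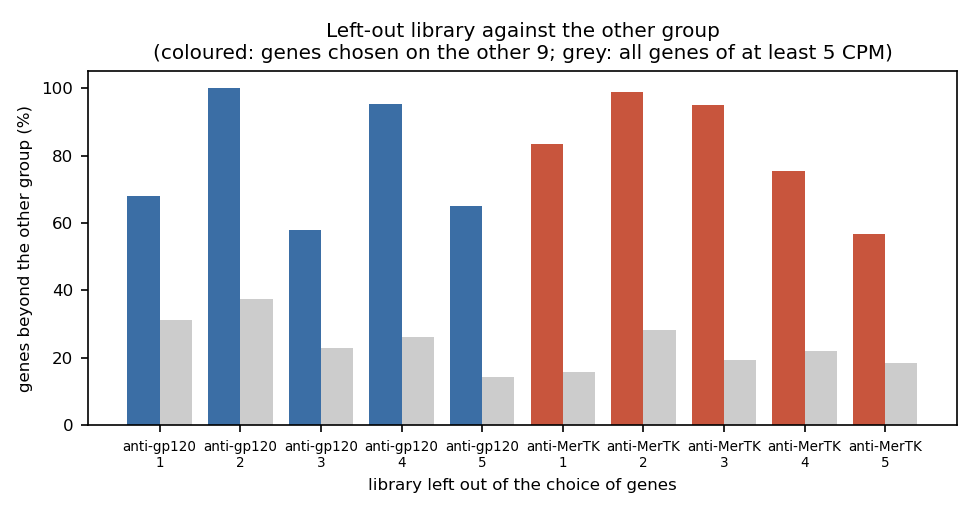
For each library left out of the choice (x axis), the percentage of genes chosen on the other 9 that lay beyond every library of the other group (coloured), beside the same percentage for all genes of at least 5 CPM (grey). Coloured bars run from 56.8% to 100%, grey bars from 14.3% to 37.3%. The libraries of the other group took part in the choice, which raises the coloured bars only.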

How the data were processed

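Polyadenylated RNA of purified tumour-associated macrophages was sequenced in 10 libraries, 5 for each antibody. The authors aligned reads with GSNAP to GRCm38, per the submitters' processing notes, whereas aligner version, annotation, counter and strand use are not stated there or in the labels. The deposited counts are numbers of uniquely aligning reads per gene model, per the file headers. The deposited RPKM values were size-factor-adjusted by the authors, per the file headers, and served to recover gene model lengths, which came out whole within 0.001 base for all 22023 genes with a value.

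CPM was computed from counts and library totals. The background test was edgeR 4.0.16's quasi-likelihood test (R 4.3.3) with TMM, filterByExpr, 1 treatment term and adjustment by Benjamini-Hochberg at 0.05 over 13588 genes. DESeq2 1.42.0 was an alternative. Length offsets were natural splines with 4 degrees of freedom on log2 GENCODE transcript length in each library, and the length contrast used log2(CPM + 0.5). The scripts were tested on simulated data with known changes.

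The members, roles and gene lists were chosen with earlier results of these data known, and the relatives named at the close after the members were known. Values in every library are given for the 20 lowest ratios, the highest RPKM, the longest and shortest genes, and the lowest ratios of larger lists. Depth was 33159858 to 46108687 counts per library.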

Additional observations from a re-analysis of the deposited data

Results flagged for a closer look

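Atp13a3 in anti-MerTK replicate 2 lay apart from the other 4 libraries of its group, at 50.2 CPM. Its gap to the nearest of them was 0.805 of the whole range of the group, above the critical value of 0.71 for 5 values. This was the only flag among 62 values tested, where chance flags about 1 in 20 groups.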

How the results depend on the processing

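The count of genes meeting the rule, 96, became 174 with a ratio limit of 0.8, 22 with 0.67, 57 with length offsets and 53 with length and GC offsets. Leaving out 1 library gave 75 to 200 genes, over 1.5 times as many without anti-gp120 replicate 1, 3 or 5 or anti-MerTK replicate 5. Leaving out 1 library gave 70 to 654 genes called by edgeR, 15 to 284 called lower and 10 to 79 members called, with the low counts without anti-gp120 replicate 2 or 4 or one of anti-MerTK replicates 1 to 4. DESeq2 called 1137 genes, 552 of them lower, and all 96 members. Without anti-gp120 replicates 2 and 4, an alternative chosen after seeing the data, 53 genes met the rule and edgeR called 11 genes, 1 lower and 0 members (93 members with an unadjusted p under 0.05), and the members' median log2 fold change was -0.39 against -0.49 with all libraries. The cause was not tested. Nothing is read from the 93, since the rule chose the members on this contrast. The length contrast of -0.19 ran from -0.25 to -0.14 when 1 library was left out. It was not computed without both anti-gp120 replicates 2 and 4. It passed the threshold only without anti-gp120 replicate 3 (-0.25, exact permutation p = 0.00794). The remaining alternatives (TMM, RLE or upper-quartile scaling, the authors' size factors, the level limit, medians and filters) kept each count within 1.5 times. No paired analysis was possible because replicate numbers follow only the order of deposition. Depth limits most the lowest value of any member, Kynu in anti-MerTK replicate 2 (0.814 CPM).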

Other observations

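Close relatives and pathway partners of several members were picked after the members were known. Of those that are not members, edgeR called only Siglec1, Ifi27l2a, Gch1 and Cox17, all higher. The others were not called or not tested, and 1.85% of all genes tested were called higher. Siglec1 (sialoadhesin) rose from 290.2 ± 61.2 CPM in anti-gp120 to 574 ± 154 CPM in anti-MerTK (mean ± SD, n = 5 libraries, edgeR adjusted p = 0.0212), while the Siglec Cd33 is among the lower genes. Ifi27l2a rose from 288 ± 55.4 CPM to 597 ± 76.5 CPM (edgeR adjusted p = 0.00906), on the other side from Ifi27. Gch1, the first enzyme of tetrahydrobiopterin synthesis, rose from 34.5 ± 3.31 CPM to 45.4 ± 5.62 CPM (edgeR adjusted p = 0.0326), while Agmo, which uses that cofactor, is a member. Cox17, a copper chaperone, rose from 46.8 ± 3.53 CPM to 58.02 ± 3.81 CPM (edgeR adjusted p = 0.0262), while the copper pump Atp7a is a member.

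Several members set beside relatives here were themselves not called by edgeR: Kynu (adjusted p = 0.0784), Kmo (0.0769) and Cd33 (0.0926). Some of the relatives that edgeR did not call either are given as values. In tryptophan breakdown, Haao was 29.9 ± 5.05 CPM against 30.5 ± 3.72 CPM and Afmid 6.199 ± 0.264 CPM against 5.67 ± 1.46 CPM. Of the other Argonautes, Ago1 had a ratio of means of 0.805 and Ago2 of 0.814, while Ago4 met all criteria and was left out by name. Cblb had 0.973 beside Cbl, Dock5 had 0.612 and Dock8 1.07 beside Dock4, and Arntl had 1.12 beside its partner Clock. None of the 35 listed type I interferon response genes at 5 CPM or more was a member, which is near the background of 0.989% for a list of this size. The list does not hold the member Ifi27. Of the 35 genes, 29 met the mirrored rule, against 1.5% of all genes at the level.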
